A study of Mus musculus with 2 samples.

Results

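The genes of 2 families of cell surface proteins, the integrins and the tetraspanins, were compared between 2 RNA-seq libraries made from γδ T cells of the mouse spleen. Members were taken by symbol from the deposited count table. They comprised the numbered and lettered integrin α genes (Itga), the integrin β genes (Itgb), the numbered tetraspanin genes (Tspan) and the tetraspanins Cd9, Cd37, Cd53, Cd63, Cd81, Cd82 and Cd151. The rule found 53 of 24091 genes, of which 18 were integrin α genes, 8 were integrin β genes and 27 were tetraspanins. The rule uses symbols and no measured value, although earlier results of these data were known when the families were picked.

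One library held γδ T cells labelled as freshly isolated and the other held γδ T cells labelled as IL-2 expanded. Both were labelled as sorted by flow cytometry, and the labels give no strain, genotype, sex, age or number of animals. Expansion took 5 days on bound antibody to CD3 with soluble antibody to CD28 and interleukin 2 (IL-2, a T cell growth factor) at 100 U/ml, so that IL-2 was not varied on its own. The same protocol text stands on both libraries, and its wording speaks of cultured cells. That the freshly isolated library was uncultured rests on its treatment label and on the design text of the series.

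Each group had 1 library. No difference therefore had a replicate check, no test was made, and the intervals given are exact 95% intervals of counting error only. Total counts were 20379385 in the freshly isolated and 22204099 in the expanded library. Levels are given as CPM (counts per 1000000, by scaled library size), where 1 count equalled 0.0465 and 0.0476 CPM. In such bulk libraries, fewer cells of a type and less RNA per cell cannot be told apart. The CD3 chain genes, which mark T cells but not γδ T cells in particular, summed to 2231 and 2094 CPM. The freshly isolated library also held markers of other spleen cells. A list of 15 macrophage and monocyte genes summed to 1041 CPM there and 21.03 CPM in the expanded library, with 10 of 15 at 0 counts in the latter. The sums were 926 and 3.81 CPM for 11 B cell and plasma cell genes (7 of 11 at 0 in the expanded library) and 1188 and 11.1 CPM for 10 dendritic cell and MHC class II genes (2 of 10 at 0). Of the platelet and megakaryocyte genes, 9 of 9 were at 0 counts in the expanded library. Their sum in the freshly isolated one was 6.64 CPM, most of it from Clec1b (5.02 CPM). The 7 erythroid genes summed to 89.5 and 0.381 CPM (5 of 7 at 0 in the expanded library), and the 6 NK cell genes to 907 and 460.0 CPM. Of these 6, Eomes stood at 370 and 362 CPM, Klrk1 at 333 and 44.2, Klrb1c at 179 and 53.3 and Ncr1 at 24.6 and 0.190. The other 2 had at most 1 count. Sums were 11.5 and 0.0476 CPM for neutrophil genes and 46.2 and 40.5 CPM for mast cell and basophil genes. In the latter list, Kit stood at 42.4 and 22.4 CPM and Mcpt8 at 0.0929 and 17.1. Stromal and endothelial genes summed to 181 and 129 CPM, with Pecam1 at 163 and 128 and Stab2 at 11.8 and 0.0951. The αβ T cell genes summed to 74.9 and 63.7 CPM but went both ways. Zbtb7b stood at 41.9 and 51.9 CPM, Cd8a at 0.929 and 9.13 and Foxp3 at 1.21 and 1.81. Cd4 stood at 9.85 and 0.333 CPM, Cd8b1 at 6.83 and 0.618 and Cd40lg at 14.2 and 0. The part that other cell types had in the results below was not tested.

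Integrins are receptors for cell surface counterreceptors and for extracellular matrix. Each is a dimer of an α and a β chain, so a cell needs transcripts of both partners, and 1 β chain can serve several α chains. Talin and kindlin bind the tail of the β chain and switch the dimer to its adhesive form, which in T cells follows receptor and chemokine signals through the small GTPase RAP1. Tetraspanins are small proteins that cross the membrane repeatedly and gather integrins, proteases and receptors into patches of membrane. In lymphocytes they are known for setting the strength of adhesion and of antigen receptor signalling.

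Of the 53 members, 39 reached a mean of 1 CPM over both libraries and were compared. Differences are expanded against freshly isolated and were counted from 2-fold upwards. Among 21 integrin genes, 4 were higher by this measure, 11 were lower and 6 lay within 2-fold. Among 18 tetraspanins, 4 were higher, 6 lower and 8 within 2-fold. Over all 11715 genes compared, 22.4% were higher and 25.0% lower. The share of higher members was near that background in both families (19.05% of integrins and 22.2% of tetraspanins), and the share of lower members was 52.4% and 33.3%. On the log2 scale (prior count 2), the median difference was -1.54 for integrins, -0.34 for tetraspanins and 0.04 for all genes.

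These medians depended on which low genes were taken in. The integrin median was -0.75 over the 18 integrins with a mean of at least 5 CPM, and the tetraspanin median was -0.94 over the 23 tetraspanins with any count. In all, 4 integrins (Itga10, Itga2b, Itgad and Itgb4) and 4 tetraspanins (Cd81, Tspan15, Tspan32 and Tspan33) were under 1 CPM in the expanded library. They entered through the freshly isolated library and could only be lower. Of the members over 1 CPM in both libraries, 4 of 17 integrins were higher and 7 lower by 2-fold or more, as were 4 and 2 of 14 tetraspanins. Over all 10333 genes past 1 CPM in both, 21.5% were higher and 19.5% lower. At the 4-fold size, 3 integrins and 3 tetraspanins were higher (8.92% of all genes) and 9 integrins and 5 tetraspanins lower (13.5% of all genes).

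**Figure D1:**
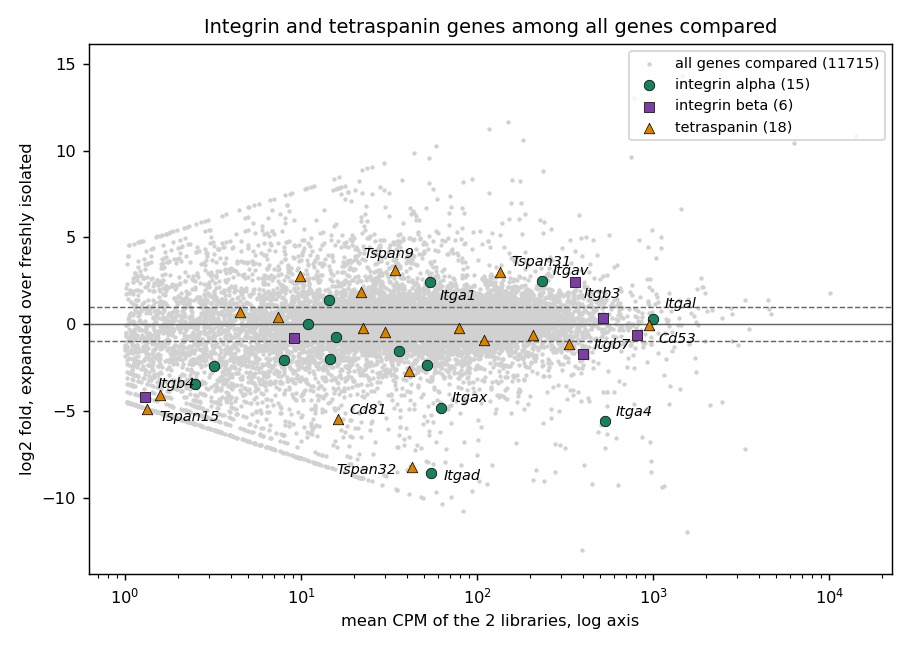
Log2 fold of the expanded over the freshly isolated library (prior count 2) against the mean CPM of the 2 libraries (log axis) for the 11715 genes compared (grey), with 15 integrin α genes (circles), 6 integrin β genes (squares) and 18 tetraspanins (triangles). Dashed lines mark 2-fold. Itgav, Itgb3, Itga1, Tspan9 and Tspan31 lie above the upper line, while Itga4 stands out among the abundant members below the lower line at a log2 fold of -5.61.

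Of the 6 α chains typical of leukocytes, 5 were lower in the expanded library by 2-fold or more (median log2 fold -3.43), beside 25.0% lower and a median of 0.04 over all genes. Itgad is among the 5 and could only be lower, having passed 1 CPM through the freshly isolated library. These 6 genes encode the partners of β2 (Itgal, Itgam, Itgax and Itgad), the αE chain Itgae and the α4 chain Itga4. Itgal, whose product forms LFA-1 with β2 and binds ICAM molecules on other cells, stood at 899.6 CPM in the freshly isolated and 1099.9 CPM in the expanded library, 1.22-fold higher (interval 1.20 to 1.25). It was the only one of the 6 within 2-fold (chromosome 7, 127296260 to 127335137, build GRCm38), and its span overlaps that of Zfp553 on the same strand.

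The 3 other β2 partners are best known from myeloid cells. Itgax, which encodes CD11c, stood at 120.1 and 4.19 CPM in the freshly isolated and the expanded library, 28.7-fold lower in the latter (23.2 to 35.9). Itgad, the αD chain of splenic macrophages, had 2334 counts (108 CPM) and 4 counts (0.190 CPM), 569.9-fold lower (222 to 2093), the widest gap of any integrin compared. Itgam, which encodes CD11b, had 12.9 and 3.04 CPM, 4.23-fold lower (3.21 to 5.64).

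These 3 genes lie side by side on chromosome 7 (128062640 to 128205503, build GRCm38), and all were at least 4-fold lower. Itgax and Itgad kept 88 and 4 counts in the expanded library, while the macrophage genes Csf1r and Mpeg1 kept 1 count each, and Cd68 stood at 38.3 and 20.7 CPM. As background, Itgax and Itgam are also expressed by activated and cytotoxic lymphocytes. Their shared chain Itgb2 stood at 979 and 640.5 CPM, 1.53-fold lower (1.496 to 1.56) and within 2-fold.

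Itga4 was the abundant integrin gene with the largest difference between the libraries. Its product pairs with β1 to form VLA-4, a receptor for VCAM-1 and fibronectin, and with β7 to form the receptor for the gut addressin MAdCAM-1. Itga4 (chromosome 2, 79255426 to 79333114) had 22487 counts in the freshly isolated and 448 in the expanded library, or 1045 and 21.3 CPM. That is 49.02-fold lower (44.6 to 53.9). The spans of Itga4 and Itgad overlap those of Cerkl and Cox6a2, respectively, on the opposite strand.

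Its partners differed less. Itgb7 (chromosome 15, 102215995 to 102231935) stood at 611 and 185 CPM, 3.30-fold lower (3.18 to 3.42). Itgb1, the β chain shared by most matrix receptors, stood at 452 and 583 CPM, 1.29-fold higher (1.26 to 1.33). Itgae, which pairs with β7 to bind E-cadherin on epithelium, stood at 53.4 and 18.3 CPM, 2.92-fold lower (2.601 to 3.29). The span of Itgae overlaps that of Gsg2 on the opposite strand, which went the other way (8.78 and 35.9 CPM).

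The chains of the vitronectin receptor were both higher in the expanded library. Itgav and Itgb3 form αvβ3, which binds the tripeptide RGD in vitronectin, osteopontin and fibronectin. Itgav (chromosome 2, 83724397 to 83806917) went from 69.9 CPM in the freshly isolated to 394 CPM in the expanded library, 5.64-fold higher (5.34 to 5.96). Itgb3 (chromosome 11, 104608000 to 104670471) went from 112 to 601 CPM, 5.36-fold higher (5.13 to 5.60). The 2 folds had overlapping counting intervals.

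Itga5, Itgb5 and Itga2b, other chains of RGD receptors, were lower, the first 2 by under 2-fold. Itga5, the fibronectin receptor chain, stood at 19.8 and 11.9 CPM, 1.66-fold lower (1.41 to 1.95). Itgb5, another partner of αv, stood at 11.5 and 6.71 CPM, 1.72-fold lower (1.39 to 2.13). Itga2b, the platelet αIIb chain, had 100 and 7 counts (4.65 and 0.333 CPM), 13.95-fold lower (6.53 to 35.6). All 9 platelet markers were at 0 counts in the expanded library, but all except Clec1b (108 counts) were under 1 CPM in the freshly isolated one. Pf4 had 9 counts there and Ppbp 7. Whether Itga2b came from platelets was not tested. The αv partners that activate latent TGF-β on epithelial and dendritic cells were scarce. Itgb6 had 0 counts in both libraries, which allows up to 0.139 and 0.143 CPM (3 counts). Itgb8 had 16 counts (0.743 CPM) and 0 counts, at least 5.21-fold lower. Itga8, the nephronectin receptor chain, had 5 and 0 counts.

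The collagen and laminin receptors went both ways. Itga1, the α1 chain of the collagen receptor VLA-1, which was first described on T cells long after activation, stood at 16.8 and 91.3 CPM, 5.44-fold higher in the expanded library (4.86 to 6.11). Its neighbour Itga2, the α2 chain of the other classical collagen receptor, stood at 10.8 and 11.04 CPM. The interval of its ratio of 1.02 (0.846 to 1.23) holds no change. Itga2 turned to lower under the other scalings except DESeq2, where its log2 fold was 0.00. Both genes lie on chromosome 13 with a gap of 26.04 kb and no other gene of the table between them. The span of Itga1 holds Pelo on the same strand, which was also higher (14.9 and 48.3 CPM), and reads shared between them could not be told apart here. Itga10, a collagen receptor chain of cartilage, stood at 5.48 and 0.951 CPM, 5.76-fold lower (3.57 to 9.78), and Itga11 had 0 counts in both.

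Of the laminin receptor chains, Itga3 was higher (7.90 and 21.1 CPM, 2.67-fold, interval 2.23 to 3.20) and Itga6 was lower (86.5 and 16.9 CPM, 5.12-fold, interval 4.57 to 5.75). Itgb4, the epithelial partner of α6, had 55 counts and 1 count, a 53.7-fold ratio (9.25 to 2159.7). Its span overlaps that of Galk1 on the opposite strand. Itga9, the closest relative of α4, stood at 23.4 and 5.66 CPM, 4.13-fold lower (3.37 to 5.08), and Itga7 had 7 and 3 counts.

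Because partner chains were counted in the same library, their ratio does not depend on how the libraries were scaled. Levels were divided by the gene length in the deposited table for this purpose. Itgav stood at 0.380 of the level of Itgb3 per kb in the freshly isolated library (0.356 to 0.406) and at 0.4001 in the expanded library (0.389 to 0.411), with overlapping intervals. For Itgae over Itgb7 the ratios were 0.0512 (0.0481 to 0.0544) and 0.0577 (0.0518 to 0.0641), again with overlapping intervals, although both genes were lower.

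The LFA-1 and α4 pairs did not keep their ratio. Itgal over Itgb2 went from 0.509 to 0.951, so that in the expanded library the LFA-1 chains were at nearly equal levels per kb. Itga4 over Itgb1 went from 0.765 (0.747 to 0.783) to 0.0121 (0.0110 to 0.0133), and Itga4 over Itgb7 from 0.353 to 0.0237. Of 24 known pairings listed, 19 had both chains at a mean of at least 1 CPM. Both chains were higher by 2-fold or more in 1 of these (αvβ3), both were lower in 3 (α4β7, αEβ7 and α6β4), and they went opposite ways in 1 (αIIbβ3). For α6β4 and αIIbβ3, Itgb4 and Itga2b were under 1 CPM in the expanded library and could only be lower.

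**Figure D2:**
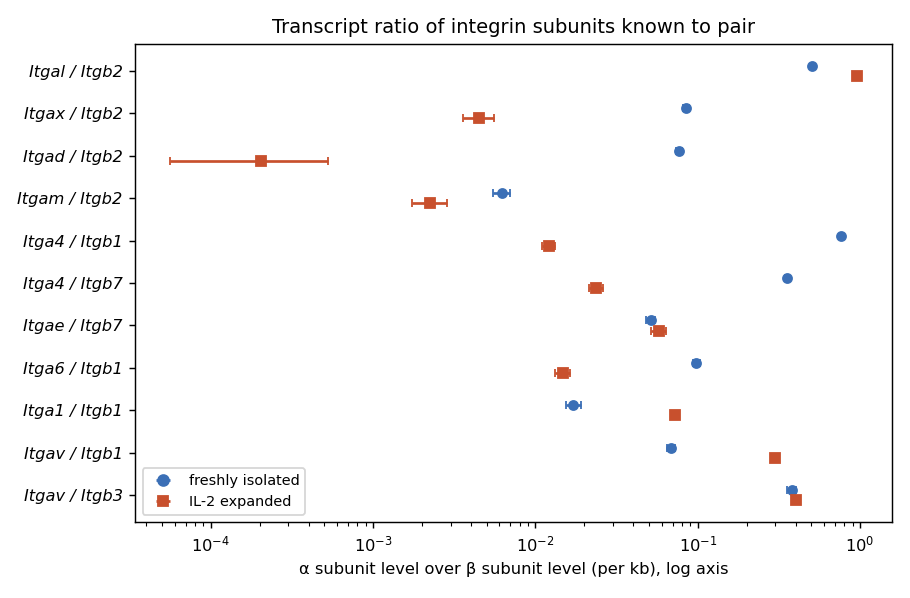
Level of the α chain over the level of the β chain (CPM per kb, log axis) for 11 pairings, in the freshly isolated (circles) and the IL-2 expanded library (squares). Bars are exact 95% counting intervals. The intervals of the 2 libraries overlap for Itgae / Itgb7 and Itgav / Itgb3 and are apart for the other 9 pairings.

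The make-up of the integrin transcripts differed between the libraries. Among α chains in the freshly isolated library, Itgal was highest per kb (169 CPM per kb), followed by Itga4 (81.1), Itgax (28.1) and Itgad (25.5). In the expanded library Itgal was again highest (207 CPM per kb), followed by Itgav (40.9), Itga1 (9.86), Itga3 (4.02) and Itgae (4.02). The last pair had overlapping counting intervals (3.66 to 4.42 and 3.63 to 4.45), and Itga4 stood at 1.65 CPM per kb.

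As a share of all α chain counts, Itga4 went from 42.04% (exact Clopper-Pearson interval 41.6 to 42.5) to 1.25% (1.14 to 1.37), Itgav from 2.81% to 23.2% and Itgal from 36.2% to 64.7%. Among β chain counts, Itgb3 went from 5.17% (4.98 to 5.38) to 29.8% (29.4 to 30.2) and Itgb7 from 28.2% to 9.19%. All α chains together took 0.262% of the counts of the freshly isolated library and 0.161% of those of the expanded library. All β chains took 0.229% and 0.191%, and all tetraspanins 0.235% and 0.177%.

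**Figure D3:**
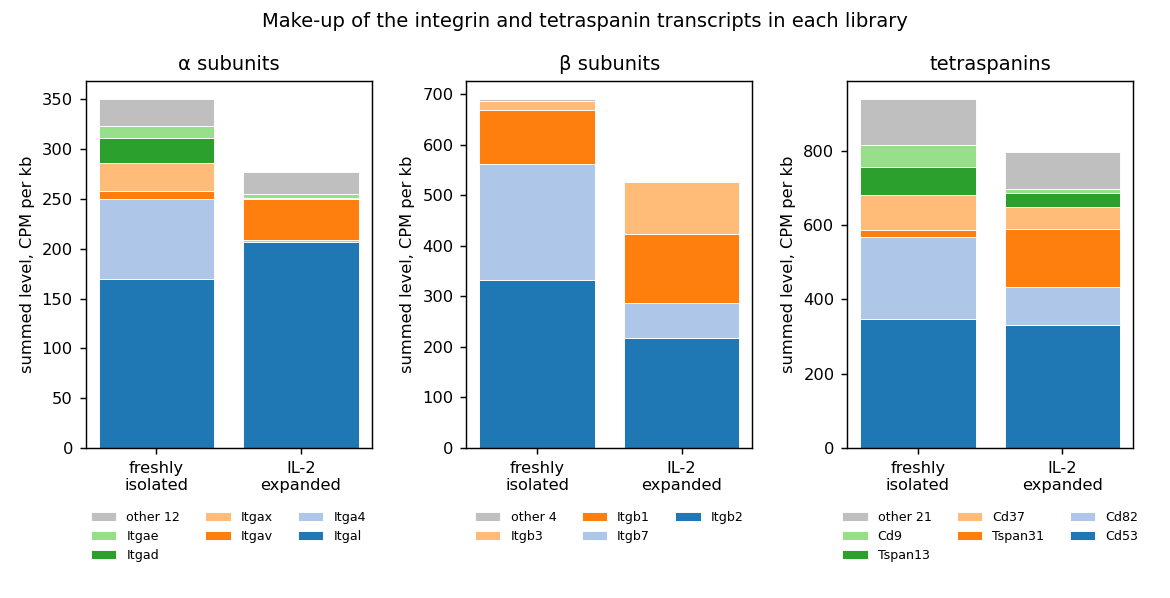
Summed level in CPM per kb of the α chains, the β chains and the tetraspanins in each library, stacked by gene, with the genes not named in each panel in grey. Itga4, Itgax and Itgad fill much of the α bar in the freshly isolated library and little of it in the expanded one, where Itgav takes second place at 40.9 CPM per kb.

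The bases before the start of Itgav and Itga4 are shown because these had the highest mean CPM among integrins at least 4-fold higher and lower, respectively, with a single promoter entry in the RefSeq table (Itgb3 has no entry there). Each run gives the 250 bases before the annotated start, 5′ to 3′ on the gene's strand, at chr2:83724147-83724396 and chr2:79255176-79255425 on the plus strand of GRCm38.p6. Capitals mark matches, on either strand, to 6 short motifs: the STAT site TTCNNNGAA, the RUNX site TGTGGT, the GC box GGGCGG, the ETS site CCGGAA, the AP-1 site TGANTCA and the KLF core CACCC.
Itgav: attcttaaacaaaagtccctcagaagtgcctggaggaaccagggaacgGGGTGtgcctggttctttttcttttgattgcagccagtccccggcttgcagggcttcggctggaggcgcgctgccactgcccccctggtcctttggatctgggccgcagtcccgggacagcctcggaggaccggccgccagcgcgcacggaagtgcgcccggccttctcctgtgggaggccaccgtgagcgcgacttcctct
Itga4: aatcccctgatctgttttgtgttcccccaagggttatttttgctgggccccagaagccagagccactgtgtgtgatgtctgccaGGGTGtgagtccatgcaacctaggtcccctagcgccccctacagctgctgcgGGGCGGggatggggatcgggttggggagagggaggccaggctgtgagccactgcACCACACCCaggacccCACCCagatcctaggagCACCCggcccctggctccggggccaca

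The Itgav window held 1 match, to the KLF core, and the Itga4 window held 6, of which 4 were to the KLF core, 1 to the GC box and 1 to the RUNX site. The RUNX match and the KLF match after it overlap by 2 bases in the run ACCACACCC. Among all 32851 promoter windows of this length in the table, 52.01% held the KLF core, 32.7% the GC box and 14.05% the RUNX site. Among the 56 windows of 44 members, the shares were 60.7%, 41.1% and 14.3%. A match describes the letters and does not show that a factor binds.

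The 7 tetraspanins named by CD number include the family's highest levels per kb, and 1 of them was higher and 3 lower by 2-fold or more, beside 22.4% and 25.0% of all genes. Cd81 is among the 3 and could only be lower, having passed 1 CPM through the freshly isolated library. Cd53, a tetraspanin of all leukocytes, stood at 973 CPM in the freshly isolated and 927 CPM in the expanded library, 1.05-fold lower (1.03 to 1.07). It was the highest tetraspanin per kb in both (348 and 332 CPM per kb). Cd37, a leukocyte tetraspanin that restrains T cell proliferation in mice, stood at 251 and 162 CPM, 1.56-fold lower (1.49 to 1.62). Cd82, known for costimulation of T cells and as a suppressor of metastasis, stood at 454 and 208 CPM, 2.181-fold lower (2.10 to 2.26).

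Cd81 and Cd9 were further apart. Cd81, a tetraspanin of B cells that is also expressed by T cells, had 686 and 13 counts (31.9 and 0.618 CPM), 51.5-fold lower (29.9 to 97.3). Cd9, which binds β1 integrins and is high on platelets and on some B cells and macrophages, stood at 71.4 and 10.99 CPM, 6.49-fold lower (5.65 to 7.49). The B cell gene Ms4a1 went from 206 counts to 0. Cd151, the partner of laminin-binding integrins, stood at 6.32 and 8.42 CPM, 1.33-fold higher (1.06 to 1.68).

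Cd63 was the only higher CD-named member past 2-fold. It is the tetraspanin of late endosomes, lytic granules and exosomes. Cd63 had 53 and 361 counts (2.46 and 17.2 CPM), 6.97-fold higher in the expanded library (5.22 to 9.49).

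**Figure D4:**
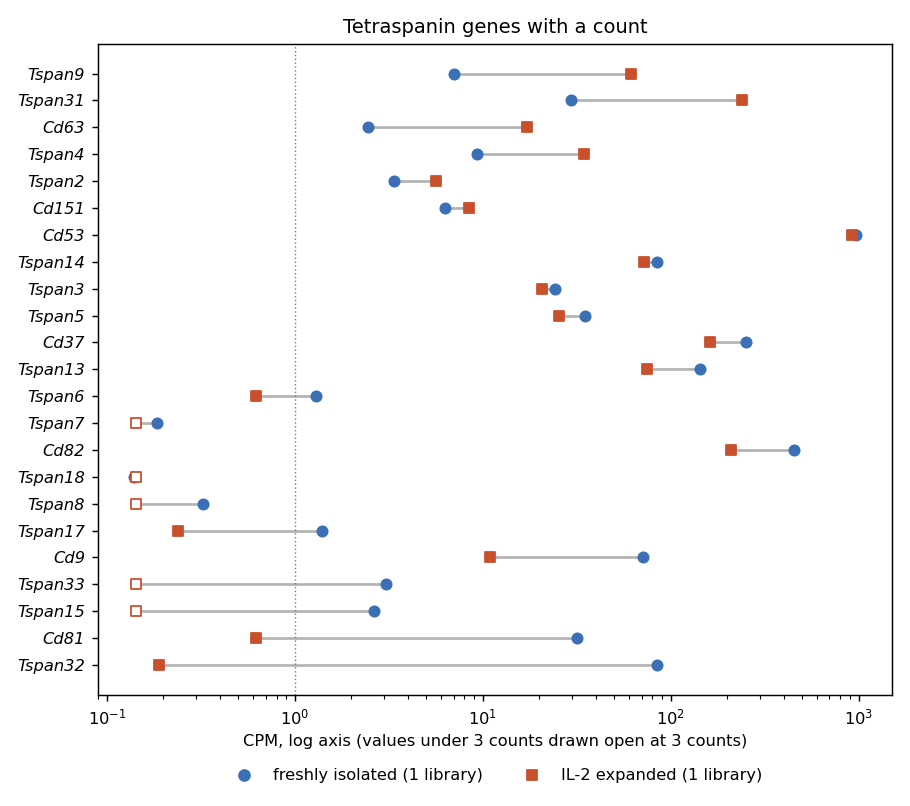
CPM (log axis) of the 23 tetraspanin genes with a count in the freshly isolated library (circles) and the IL-2 expanded library (squares), 1 library each, ordered by log2 fold. The dotted line marks 1 CPM, and values under 3 counts are drawn open at 3 counts. Tspan9, Tspan31, Cd63 and Tspan4 lie to the right in the expanded library, Cd53 overlaps, and Tspan32 and Cd81 fall under 1 CPM.

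The numbered tetraspanins were split by membership of the TspanC8 group, which is known to bind the protease ADAM10. Of the 7 compared outside this group, 3 were higher by 2-fold or more and 1 was lower. Of the 4 compared within it, none was higher and 2 were lower. Over all genes, 22.4% were higher and 25.0% lower. The lower genes, Tspan15, Tspan32 and Tspan33, were under 1 CPM in the expanded library and could only be lower. Tspan31 (chromosome 10, 127067290 to 127070261), a gene first found amplified in sarcoma next to Cdk4, went from 29.4 CPM in the freshly isolated to 240.2 CPM in the expanded library, 8.17-fold higher (7.52 to 8.88). It was the second highest tetraspanin per kb in the expanded library (156 CPM per kb). Tspan9, known from platelets, stood at 7.06 and 61.6 CPM, 8.72-fold higher (7.36 to 10.4). Tspan4, known as a marker of migrasomes, stood at 9.34 and 34.6 CPM, 3.70-fold higher (3.16 to 4.35). Its span overlaps that of Chid1 on the opposite strand, which was also higher (18.4 and 60.9 CPM).

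Tspan32 was the tetraspanin with the widest gap. It is a tetraspanin of blood cells whose loss in mice enhances T cell proliferation. Tspan32 (chromosome 7, 143005046 to 143019485) had 1823 counts (84.7 CPM) and 4 counts (0.190 CPM), 445-fold lower (174 to 1635). It lies 33.3 kb from Cd81 on chromosome 7 with no other gene of the table between them, and Cd81 was 51.5-fold lower (29.9 to 97.3). Both passed 1 CPM through the freshly isolated library and could only be lower. Tspan13, by contrast, stood at 143 and 74.7 CPM, 1.92-fold lower (1.80 to 2.04), which passed 2-fold when libraries were scaled by total count (log2 fold -1.10). Tspan2 (3.39 and 5.61 CPM) and Tspan3 (24.3 and 20.7 CPM) lay within 2-fold.

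The tetraspanins that escort the membrane protease ADAM10 to the surface (the TspanC8 group) were unequal. Tspan14 (84.7 and 72.4 CPM) and Tspan5 (34.9 and 25.4 CPM) were over 1 CPM in both libraries and within 2-fold. The other members of the group were near or at the floor in the expanded library. Tspan33, known from B cells and erythroid cells, had 66 and 2 counts, a ratio of 32.2 (8.58 to 272), with the B cell and erythroid sums also lower in the expanded library. Tspan15 had 57 counts (2.65 CPM) and 0 counts, at least 18.6-fold lower. Tspan17 had 30 and 5 counts and Tspan10 none. The protease they escort was not lower, with Adam10 at 199 and 281 CPM. Of the other tetraspanins, Tspan6, Tspan7, Tspan8 and Tspan18 had at most 28 counts in either library, and Tspan1, Tspan11 and Tspan12 had 0 counts in both.

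The bases before the start of Tspan31 and Tspan32 were taken by the same rule, as the tetraspanins of highest mean CPM at least 4-fold higher and lower with a single promoter entry. They lie at chr10:127070262-127070511 (minus strand) and chr7:143004796-143005045 (plus strand) of GRCm38.p6, with capitals marking the same 6 motifs.
Tspan31: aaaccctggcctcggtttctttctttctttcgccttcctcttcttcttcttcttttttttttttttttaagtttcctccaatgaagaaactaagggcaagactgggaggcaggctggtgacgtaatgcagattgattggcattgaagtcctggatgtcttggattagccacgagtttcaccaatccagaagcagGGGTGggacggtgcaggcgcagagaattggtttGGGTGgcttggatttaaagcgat
Tspan32: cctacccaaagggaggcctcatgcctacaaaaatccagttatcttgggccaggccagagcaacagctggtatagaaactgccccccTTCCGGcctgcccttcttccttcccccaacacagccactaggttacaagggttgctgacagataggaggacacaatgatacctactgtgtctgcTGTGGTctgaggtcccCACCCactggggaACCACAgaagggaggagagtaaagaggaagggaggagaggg

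The Tspan31 window held 2 matches to the KLF core. The Tspan32 window held 4 matches, 2 of them to the RUNX site, 1 to the ETS site and 1 to the KLF core. The ETS site was present in 12.03% of all windows and 12.5% of member windows. None of the 4 windows shown held the STAT or the AP-1 site, which 7.02% and 6.75% of all windows held.

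The genes that work with integrins were taken from lists chosen by function. Their counts stand beside 22.4% of all genes higher, 25.0% lower and a median log2 fold of 0.04. Of 26 compared genes that act on integrin activation from inside the cell, 1 was higher and 9 were lower by 2-fold or more (median log2 fold -0.59). This list mixes activators with inhibitors, so its counts give no direction of activation. Rasgrp2, which encodes CalDAG-GEFI, the exchange factor of RAP1, stood at 273 and 14.4 CPM, 19.00-fold lower (16.9 to 21.4), and the RAP1 inactivator Rap1gap2 at 53.01 and 2.24 CPM. Rasgrp4 was the higher gene (10.3 and 66.5 CPM), and Rap1a stood at 73.4 and 117 CPM. The main genes whose products bind the β tail directly were within 2-fold, with talin-1 (Tln1) at 783 and 755 CPM and the leukocyte kindlin Fermt3 at 239 and 327 CPM.

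Of 29 compared genes of the adhesion complex and its signalling, 2 were higher and 7 lower by the same measure, with a median of -0.09. Actn1, an α-actinin that links integrins to actin, stood at 247 and 8.28 CPM, 29.8-fold lower (25.6 to 34.9), whereas its paralogue Actn4 stood at 259.9 and 481 CPM, 1.85-fold higher (1.79 to 1.91). The docking protein gene Nedd9 was 2.31-fold higher (179 and 414 CPM) and Asap1 5.13-fold lower (99.98 and 19.5 CPM). Of the focal adhesion kinases, Ptk2b, the form of blood cells, stood at 348 and 426 CPM, and Ptk2 at 11.7 and 1.38 CPM.

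Of 15 compared integrin ligand genes, 9 were higher and 2 lower (median 1.96). Spp1, whose product osteopontin is a ligand of αvβ3, went from 4 counts to 3741 CPM, and Nov, a matrix protein also known to bind αv integrins, had 0 counts and 301 CPM. The laminin chain genes Lama5 (4 counts and 50.3 CPM) and Lamc1 (6.64 and 77.6 CPM), the latent TGF-β gene Tgfb1 (171 and 532 CPM) and its anchor Lrrc32 (1.02 and 43.1 CPM) were among the higher genes. Cdh1, which encodes the αEβ7 ligand E-cadherin, stood at 8.41 and 44.8 CPM.

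The lower ligands were Vcam1, the counterreceptor of α4β1, at 166 CPM and 0 counts, and Icam2, a ligand of LFA-1, at 48.5 and 6.61 CPM. Vcam1 is also in the macrophage list, which was lower in the same library. Icam1 stood at 148 and 89.5 CPM.

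Of 16 compared partners of tetraspanins, 4 were higher, 4 lower and 8 within 2-fold (median 0.34). The interferon-induced genes Ifitm1, Ifitm2 and Ifitm3, whose products associate with CD81 and CD9, and Hbegf, whose precursor binds CD9, were higher. Ifitm1 stood at 1.81 and 1492 CPM, 824-fold higher (602 to 1158). Ifitm2 stood at 9.38 and 744 CPM, 79.2-fold higher (68.96 to 91.5), Ifitm3 at 19.5 and 353 CPM, and Hbegf at 4.23 and 52.9 CPM. The lower partners included Cr2, Cd36 and Cd46, of which Cr2 is also in the B cell list. The CD9 and CD81 partner gene Igsf8 stood at 20.02 and 14.7 CPM, and Adam17 at 111 and 120.3 CPM.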

How the data were processed

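The deposited table gives whole-number read counts per gene in 1 column per library, not normalised, with symbols, spans and a length per gene. Per the submitters' processing notes, the named tools included the aligner STAR (version 2.6.0), the read counter HTSeq (version 0.6.0) and edgeR (version 3.28.1), and the build was GRCm38, also written mm10. Their settings, the annotation, the use of strand and the treatment of reads that match several places are not given in the sources used here, so counts of overlapping or similar genes are uncertain. How the deposited lengths were made is not given either. For the members they were 0.326 to 1.60 times the summed exon length in GENCODE M21, which moves the order of levels per kb accordingly.

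Counts were scaled with TMM factors (edgeR 4.0.16, R 4.3.3). Log2 folds carry a prior count of 2, and printed folds are plain ratios of CPM with exact conditional binomial 95% intervals, or, at 0 counts, bounds against 3 counts in that library. Intervals cover counting error only, since each group had 1 library. Where PCR copies of a molecule were counted as separate reads, the intervals are too narrow even for that. A gene was compared where its mean reached 1 CPM, and its log2 fold decided whether it passed 2-fold or 4-fold. The calculation was tested on simulated data. Every member with a mean of at least 1 CPM is named. Of each list of genes that work with integrins or tetraspanins, the 2 highest and 2 lowest folds among genes of at least 10 CPM on average are named. The genes named from the marker lists do not follow this rule. Tln1, Fermt3, Ptk2, Ptk2b, Adam10, the markers and the further adhesion genes, ligands and partners named were chosen after their values were seen. The members and lists were chosen with earlier results of these data known. Promoter windows are from RefSeq (GRCm38.p6). Alternatives in scaling (total count, DESeq2 1.42.0, upper quartiles, total without the 50 most abundant genes), prior count and filter were tried.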

Additional observations from a re-analysis of the deposited data

How the results depend on the processing

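All counts of integrins and tetraspanins at least 2-fold higher or lower stayed within 1.5 times their main value under the 4 other scalings, the prior counts of 0.5 and 5, no filter and a mean of at least 5 CPM. The 25 members at least 2-fold apart kept their direction and stayed past 2-fold under all of these that retained them. The medians that moved were that of tetraspanins, to -0.94 with no filter and that of integrins, to -0.75 at a mean of at least 5 CPM, where the set of genes itself changed. Of 39 members, Itga2 changed sign, with log2 folds from -0.13 to 0.03, and Tspan13 passed 2-fold under 3 of the other scalings. Scaling by total count moved the median log2 fold of all genes from 0.04 to -0.12. With 1 library per group, no library could be left out, and no paired analysis was possible because each group has 1 sample. Depth limited the 14 members under a mean of 1 CPM, where 3 counts equal 0.139 and 0.143 CPM.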

Other observations

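Relatives of both families that carry other names were read from the table by symbol after the members' values were known. The tetraspanins among them are known from bladder epithelium and photoreceptors. Upk1a, a uroplakin, had 18 and 113 counts (0.836 and 5.38 CPM), 6.43-fold higher in the expanded library (3.89 to 11.2). Rom1, known from photoreceptors, stood at 13.1 and 8.28 CPM, 1.59-fold lower (1.31 to 1.93). Upk1b had 1 count in each library and Prph2 none.

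Among integrin-related genes, Itgb2l, a relative of Itgb2, had 0 and 3 counts. Itgb1bp1, which encodes an inhibitor that competes with talin for the β1 tail, stood at 39.95 and 57.9 CPM, 1.45-fold higher (1.33 to 1.58). Itgb3bp, whose product is a centromere protein despite its name, stood at 10.1 and 9.51 CPM, with an interval of the ratio (0.875 to 1.30) that holds no change.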
